A study of Homo sapiens with 6 samples.

Results

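Aminoacyl-tRNA synthetases, the enzymes that attach each amino acid to its transfer RNA, were examined in lung-metastatic breast cancer cells after transfection against PGC-1alpha. The list was drawn up by gene symbol and held 35 synthetase genes, of which 31 had a probe set with that symbol among the 17687 genes compared. It covered 19 genes of cytosolic or shared enzymes, of which 16 were measured, and 16 genes of mitochondrial enzymes, of which 15 were measured. The signals of MARS1, QARS1, VARS1 and TARS2 were not analysed here. Each of the 31 measured members had 1 probe set, and the main comparisons used no filter on low values.

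The cells were 4175 cells, a lung variant of MDA-MB-231, which is a human triple-negative breast cancer line. The siPGC1alpha group (n = 3) received an siRNA against human PGC-1alpha, the product of PPARGC1A, for 48 hours, starting 24 hours after plating. The sicontrol group (n = 3) received a control siRNA on the same schedule. Total RNA was isolated with a kit, and 10 ng per sample was labelled for a single-colour Affymetrix array. All samples share the parental line and carry no other labelled treatment, so they represent 1 cell line in culture. The labels do not say whether the replicates were grown separately, and p-values here rest on a spread between samples that may be technical.

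Each cell compartment that translates needs its own charged transfer RNAs. The cytosolic enzymes, whose gene names mostly end in ARS1, serve the cytosolic ribosome. The enzymes ending in ARS2 are encoded in the nucleus and imported to charge mitochondrial transfer RNAs, which are needed to make the respiratory chain subunits encoded by mitochondrial DNA. GARS1 and KARS1, the glycyl and lysyl enzymes, serve both compartments from 1 gene each through different start sites or splice forms. Several cytosolic enzymes form a multi-synthetase complex in animal cells. Many cytosolic synthetase genes are induced by ATF4, the transcription factor of amino acid shortage and stress, through a C/EBP-ATF response element. PGC-1alpha is a coactivator known for raising nuclear genes of mitochondria together with the nuclear respiratory factors and the estrogen-related receptors.

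Promoter sequences of the synthetase genes are shown because they hold a feature that the gene list did not use and that was more frequent in the cytosolic class. RefSeq promoter windows (assembly GRCh38.p14, 300 bases, of which 250 lie before the gene start) were found for 30 of the 35 members. The ATF4 element was searched as TGATGNAA on both strands. It was present for 7 of the 16 cytosolic and shared genes with a window, namely AARS1, CARS1, GARS1, IARS1, MARS1, NARS1 and TARS1. All 7 belong to the 10 genes with a window on a list of ATF4-induced synthetases drawn from general knowledge. Among mitochondrial genes it was present for 1 of 14, YARS2. Of all 27305 genes with a window, 4.46% held it, and of the 14250 compared genes with a window, 3.59%. The match with its flanks is printed below for the 7 measured genes in the direction of the gene. Capitals mark the match, and a match on the opposite strand reads as its reverse complement.
AARS1, chr16:70289675-70289704, minus strand: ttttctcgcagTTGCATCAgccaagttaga
CARS1, chr11:3057407-3057436, minus strand: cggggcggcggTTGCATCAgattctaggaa
GARS1, chr7:30594834-30594863, plus strand: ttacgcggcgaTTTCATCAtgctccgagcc
IARS1, chr9:92293692-92293721, minus strand: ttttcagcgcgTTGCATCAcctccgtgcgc
NARS1, chr18:57621804-57621833, minus strand: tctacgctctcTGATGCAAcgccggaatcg
TARS1, chr5:33440956-33440985, plus strand: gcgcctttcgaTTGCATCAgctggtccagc
YARS2, chr12:32756076-32756105, minus strand: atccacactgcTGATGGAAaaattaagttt

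The match began 2 bases before the gene start in CARS1, 13 before it in IARS1 and 33 before it in GARS1. It began 2 bases after the start in TARS1 and 14 after it in NARS1. In AARS1 and YARS2 it lay further upstream, 187 and 197 bases before the start. A match of letters is a description of this window, not evidence of binding.

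Motifs of factors that work with PGC-1alpha, and of ETS factors, were found in both classes or in a single gene. The core motif of nuclear respiratory factor 1, searched on both strands with its middle base free, was present for 3 of 16 cytosolic and shared genes (FARSB, SARS1 and TARS1) and for 3 of 14 mitochondrial genes (IARS2, MARS2 and PARS2), against 6.98% of all genes. The estrogen-related receptor motif TNAAGGTCA was found for 1 member, FARSA, against 1.17% of all genes. The ETS-type motif CCGGAAGT was found for 5 cytosolic genes (CARS1, HARS1, NARS1, TARS1 and WARS1) and for 3 mitochondrial genes (EARS2, HARS2 and PARS2), against 4.95% of all genes. The matches of HARS1 and HARS2 are the same sites, counted for both genes because their windows overlap. Among the 14250 compared genes with a window, the shares were 9.98%, 0.877% and 7.02% for the 3 motifs in this order. Some genes, such as TARS1, had more than 1 window. No matches of different motifs overlapped in these windows.

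HARS1 and HARS2, the cytosolic and mitochondrial histidyl enzymes, are neighbours that point away from each other. Their annotated starts are separated by 84 bases, and their promoter windows share 184 bases. The HARS2 window (chr5:140691205-140691504, plus strand) is printed here because it contains both starts. Capitals mark 2 matches to the ETS-type motif, of which the one nearer the 5′ end is on the opposite strand. Both lie in the shared bases and are also the matches counted for HARS1.
HARS2: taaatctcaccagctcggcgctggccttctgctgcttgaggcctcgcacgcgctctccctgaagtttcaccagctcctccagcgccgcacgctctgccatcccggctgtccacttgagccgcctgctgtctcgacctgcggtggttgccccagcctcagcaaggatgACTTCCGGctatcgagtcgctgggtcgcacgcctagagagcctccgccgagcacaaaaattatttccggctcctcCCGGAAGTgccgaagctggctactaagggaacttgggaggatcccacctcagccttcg

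One array, siPGC1alpha replicate 1, stood apart from the other 5 before any comparison of groups. Its Pearson r with each of them, computed over genes of the same array and given as a description, was 0.585 to 0.604. The closest partner of every other array was at 0.996. No 2 arrays held identical values. Every result is therefore given for siPGC1alpha replicates 2 and 3 against the 3 controls and for all 6 arrays. PPARGC1A, the targeted gene, read 7.95, 6.52 and 6.47 on siPGC1alpha replicates 1, 2 and 3, against 6.45, 6.49 and 6.49 on sicontrol replicates 1, 2 and 3 (log2). The difference without replicate 1 was 0.019 (SE 0.071, limma adjusted p = 0.9998), and no array labelled siPGC1alpha was below the lowest control array. A lower PPARGC1A signal was thus not seen, and siPGC1alpha here means the arrays with that label. The PPARGC1A control mean was 6.48, at or above that of 36.3% of genes, from 1 probe set without a detection call. Whether this probe set would show a decrease of the transcript was not tested. Vimentin (VIM), CD44, AXL, CAV1 and MSN, which this mesenchymal line is known to express, had control means of 11.04 to 12.80. ESR1, PGR and CDH1, known to be low or absent in it, had control means of 5.99, 2.76 and 3.97, and GATA3, a luminal factor, of 7.83.

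Deposited signals of the cytosolic enzymes lay in the upper part of the array's range, and those of the mitochondrial enzymes were spread around its middle. The control means of the 16 cytosolic and shared genes ranged from 8.66 (NARS1) to 11.71 (GARS1) with a median of 10.29 (log2). Those of the 15 mitochondrial genes ranged from 6.40 (AARS2) to 9.69 (IARS2) with a median of 7.96. The median over all 17687 genes was 7.28. All 16 cytosolic and shared genes and 10 of the 15 mitochondrial genes were above it, and 12 and 0 of them were in the top 10% of genes by control mean. These are signals of different probe sets, which bind with different strength, so that they describe the array and do not rank transcript amounts. Within a gene the arrays agreed closely, with standard deviations over the 3 controls of 0.018 (SARS1) to 0.20 (NARS2).

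**Figure D1:**
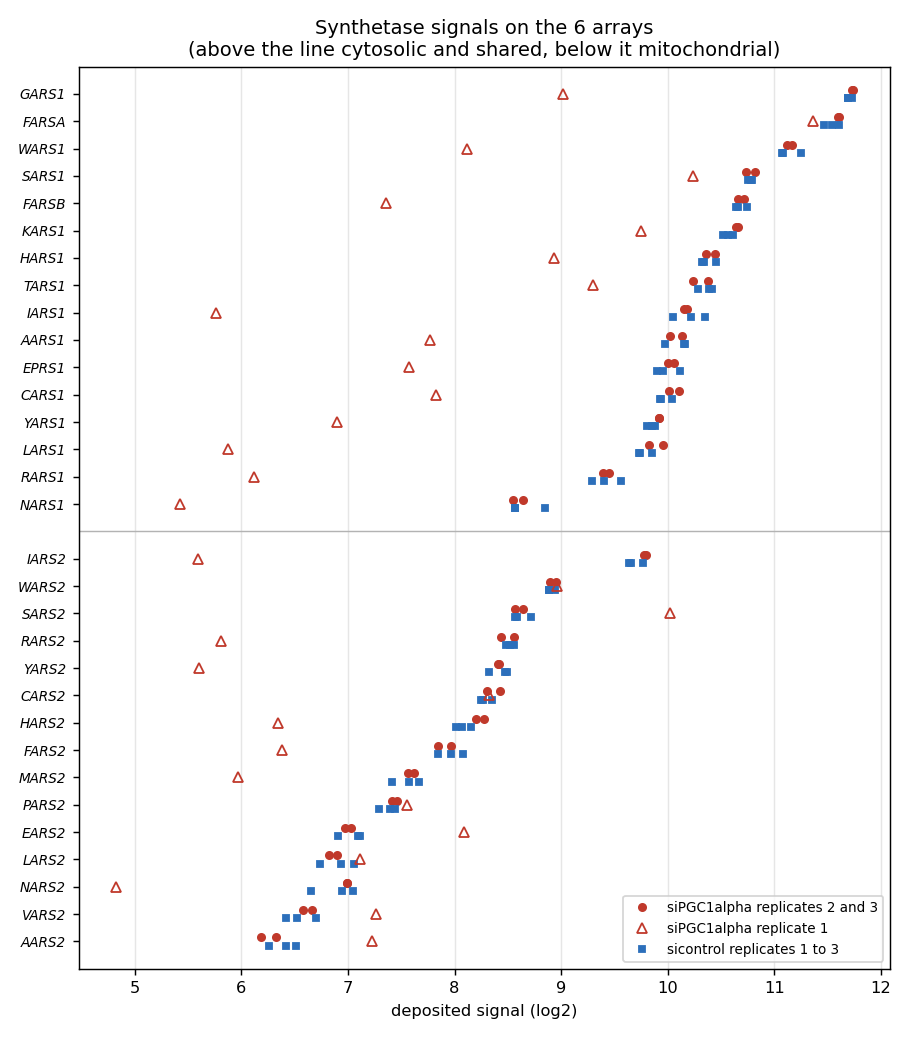
Deposited log2 signal of the 31 synthetases on each array, sorted within class by control mean. Red circles are siPGC1alpha replicates 2 and 3, open triangles siPGC1alpha replicate 1 and blue squares the 3 sicontrol arrays. Circles and squares lie together in every row, with control means from 6.40 to 11.71, while the triangles deviate from the control mean by -4.45 (IARS1) to 1.39 (SARS2).

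No difference in cytosolic synthetase transcripts was detectable between the arrays labelled siPGC1alpha replicates 2 and 3 and the controls. Of the 16 cytosolic and shared genes, 0 passed the test (limma, Benjamini-Hochberg adjusted over all genes, threshold 0.05), as did 0% of all genes. None had an unadjusted p under 0.05, against 4.44% of all genes. Differences (siPGC1alpha minus sicontrol, log2) ranged from -0.068 (NARS1) to 0.12 (LARS1), with a median of 0.021 beside 0.0080 over all genes. Of the 16, 12 were above 0, or 75% beside 53.5% of all genes. In such bulk RNA, fewer cells of a type and less RNA per cell cannot be told apart.

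LARS1, the leucyl enzyme, which also takes part in leucine sensing, had the smallest p of this class. It read 9.82 and 9.96 on siPGC1alpha replicates 2 and 3, against 9.85, 9.74 and 9.73 on sicontrol replicates 1, 2 and 3. The groups overlapped, and the difference was 0.12 (SE 0.083, 95% confidence interval -0.080 to 0.31, limma adjusted p = 0.9998). KARS1, the lysyl enzyme of both compartments, read 10.66 and 10.64 on siPGC1alpha replicates 2 and 3, against 10.61, 10.52 and 10.57 on the controls. Its groups did not overlap, but the difference was 0.089 (SE 0.073, limma adjusted p = 0.9998). CARS1, the cysteinyl enzyme, read 10.11 and 10.01, against 10.04, 9.93 and 9.94 on the controls, a difference of 0.091 (SE 0.080, limma adjusted p = 0.9998). YARS1, the tyrosyl enzyme, read 9.92 on both siPGC1alpha arrays, against 9.88, 9.81 and 9.85 on the controls, a difference of 0.070 (SE 0.071, limma adjusted p = 0.9998). GARS1, the glycyl enzyme, was the brightest member, with 11.74 and 11.73 on siPGC1alpha replicates 2 and 3, against 11.73, 11.69 and 11.69 on the controls. Its groups did not overlap, by a margin smaller than the printed decimals, and the difference was 0.031 (SE 0.070). On siPGC1alpha replicate 1, CARS1 read 7.83 and YARS1 6.90, below all these arrays.

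The other cytosolic enzymes had differences of at most 0.068 in size. FARSA and FARSB encode the catalytic and the other subunit of the phenylalanyl enzyme and had differences of 0.068 (SE 0.078) and 0.013 (SE 0.075). SARS1, the seryl enzyme, differed by 0.0019 (SE 0.073), and RARS1, the arginyl enzyme, by 0.0022 (SE 0.10). WARS1, the tryptophanyl enzyme, which interferon-gamma is known to induce, differed by 0.014 (SE 0.087). EPRS1, which charges both glutamate and proline, differed by 0.035 (SE 0.091). Those below 0 were NARS1 for asparagine at -0.068 (SE 0.11), TARS1 for threonine at -0.057 (SE 0.086), IARS1 for isoleucine at -0.043 (SE 0.10) and AARS1 for alanine at -0.020 (SE 0.091). NARS1 read 8.55 and 8.64 on siPGC1alpha replicates 2 and 3, against 8.85, 8.57 and 8.57 on the controls, so that its negative value came with 1 high control array.

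Nor was a difference detectable for the mitochondrial synthetases, which belong to the organelle that PGC-1alpha is known to act on. Of the 15 measured genes, 0 passed the limma test, beside 0% of all genes. An unadjusted limma p under 0.05 was reached by 0 of them, beside 4.44% of all genes. Differences ranged from -0.15 (AARS2) to 0.17 (HARS2), with a median of 0.022, and 8 were above 0 and 7 below.

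HARS2 had the smallest p of all 31 synthetases. It read 8.28 and 8.20 on siPGC1alpha replicates 2 and 3, against 8.01, 8.15 and 8.07 on sicontrol replicates 1, 2 and 3. The groups did not overlap. The difference was 0.17 (SE 0.080, 95% confidence interval -0.023 to 0.36), with an unadjusted limma p of 0.0755 and an adjusted p of 0.9998. Its neighbour HARS1, which shares the printed promoter stretch, read 10.44 and 10.36 on the siPGC1alpha arrays, against 10.32, 10.34 and 10.45 on the controls, a difference of 0.029 (SE 0.080). AARS2, the mitochondrial alanyl enzyme, read 6.32 and 6.18, against 6.26, 6.51 and 6.42 on the controls, a difference of -0.15 (SE 0.10, limma adjusted p = 0.9998). IARS2, for isoleucine, read 9.78 and 9.80, against 9.77, 9.66 and 9.64 on the controls, a difference of 0.10 (SE 0.077). CARS2, for cysteine, read 8.43 and 8.30, against 8.27, 8.25 and 8.35 on the controls, a difference of 0.076 (SE 0.081). The groups did not overlap with siPGC1alpha higher for 2 of the 15 mitochondrial genes, HARS2 and IARS2, beside 11.3% of all genes. With siPGC1alpha lower they did not overlap for 0 of the 15, beside 8.42% of all genes. On siPGC1alpha replicate 1, HARS2 and HARS1 read 6.34 and 8.93, below these arrays, and AARS2 read 7.23, above them.

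The remaining mitochondrial enzymes had differences between -0.062 (FARS2, phenylalanine) and 0.11 (NARS2, asparagine). LARS2, for leucine, was at -0.054 (SE 0.11) and EARS2, for glutamate, at -0.036 (SE 0.089). SARS2 for serine, RARS2 for arginine and YARS2 for tyrosine were at -0.018, -0.018 and -0.010. WARS2 for tryptophan, MARS2 for methionine, PARS2 for proline and VARS2 for valine were at 0.022, 0.041, 0.065 and 0.069. NARS2 had the widest interval, -0.18 to 0.40, and its control arrays read 7.05, 6.94 and 6.65.

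**Figure D2:**
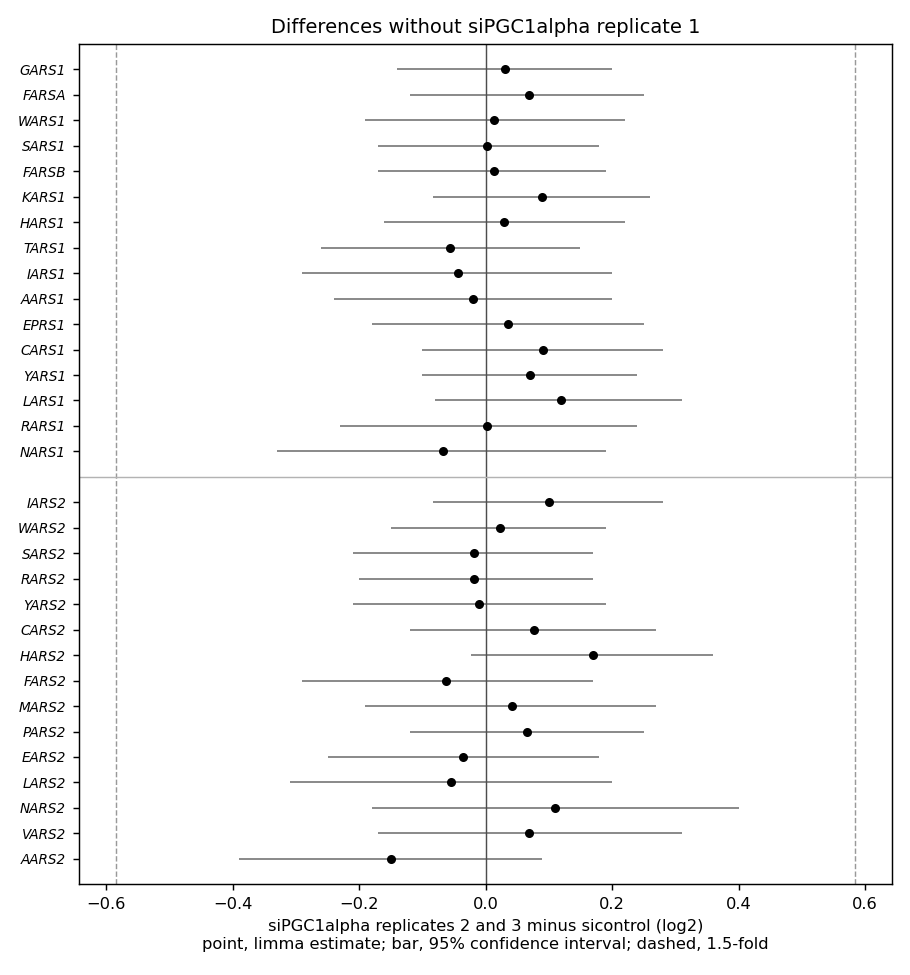
Difference of siPGC1alpha replicates 2 and 3 minus the 3 sicontrol arrays (log2) for each synthetase, as the limma estimate with its 95% confidence interval, with cytosolic and shared genes above the line and mitochondrial genes below it. Every interval contains 0 and lies inside the dashed lines at a 1.5-fold difference.

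The confidence intervals gave a range for the change of each gene in these 5 arrays. The intervals were not adjusted for the number of genes and rest on a spread between samples that may be technical. They lay within a 1.5-fold difference in either direction for all 31 synthetases, beside 95.2% of all genes. As a ratio, the lowest bound of any synthetase was 0.764 (AARS2) and the highest was 1.32 (NARS2). The groups did not overlap with siPGC1alpha higher for 5 members (GARS1, KARS1, YARS1, HARS2 and IARS2), beside 11.3% of all genes, and with siPGC1alpha lower for 0 members, beside 8.42% of all genes. Both siPGC1alpha arrays were above the control mean for 14 synthetases, beside 32.7% of all genes, and both below it for 6, beside 27% of all genes. The class medians were also compared on each array. The cytosolic and shared median minus the mitochondrial median, both as deviations from the control mean, was 0.014 and -0.017 on siPGC1alpha replicates 2 and 3, against 0.083, -0.053 and -0.049 on sicontrol replicates 1, 2 and 3.

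Groups of enzymes with a common assembly or regulator gave median differences of 0.035 or less in size in the same 5 arrays. For the 5 measured members of the multi-synthetase complex (EPRS1, IARS1, KARS1, LARS1 and RARS1) the median was 0.035, 4 members were above 0 and 0 passed the test. The 11 measured synthetases known as ATF4-induced had a median of 0.014, with 7 above 0 and 0 passing. The 7 measured genes with the printed ATF4 element ranged from -0.068 (NARS1) to 0.091 (CARS1), with a median of -0.020 and 2 above 0. By catalytic fold, the 15 measured class I enzymes had a median of 0.022 and the 15 measured class II enzymes of 0.013. EPRS1 holds a domain of each class and was counted in neither.

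Over all 6 arrays the cytosolic class lay below the controls, and without siPGC1alpha replicate 1 it did not. The median difference of the 16 cytosolic and shared genes was -0.83 with replicate 1 and 0.021 without it. That of the 15 mitochondrial genes was 0.031 with it and 0.022 without it. Over all genes the median was 0.19 with it and 0.0080 without it. By limma, 0 synthetases passed over the 6 arrays, as did 0% of all genes, and 0 had an unadjusted p under 0.05, beside 0.017% of all genes. Of the synthetases, 8 were above 0, all mitochondrial, beside 61.8% of all genes. The confidence interval lay within a 1.5-fold difference for 4 synthetases, beside 4.27% of all genes. IARS1 differed by -1.51 (SE 1.2, limma adjusted p = 0.663) and IARS2 by -1.30 (SE 1.15, limma adjusted p = 0.663). SARS2 differed by 0.45 (SE 0.43, limma adjusted p = 0.663). The 3 siPGC1alpha arrays were all below, or all above, the 3 controls for 0 synthetases, beside 1.85% of all genes for lower and 5.42% for higher.

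On siPGC1alpha replicate 1 alone, the cytosolic enzymes read low throughout and the mitochondrial enzymes were divided. This array has no replicate of its kind, so its values are described without a test. All 16 cytosolic and shared genes were below every control array, as were 7 of the 15 mitochondrial genes, beside 36.8% of all genes. Another 7 mitochondrial genes were above every control array, beside 60% of all genes, and CARS2 at 8.32 lay among its controls. The median deviation from the control mean was -2.56 for the cytosolic and shared genes and 0.031 for the mitochondrial genes, beside 0.61 for all genes. A 2-fold or larger deficit was seen for 13 of the 16 and 7 of the 15, beside 25.3% of all genes. A 2-fold or larger excess was seen for 0 and 2 of them, beside 38.9% of all genes.

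Relative to its control mean, IARS1 lay lowest of the cytosolic class, at 5.76 on siPGC1alpha replicate 1 against 10.21 ± 0.15 on the controls (SD, n = 3), a deviation of -4.45. The other siPGC1alpha arrays gave IARS1 at 10.15 and 10.18, against 10.35, 10.22 and 10.05 on the controls, so that the low reading was limited to 1 array. LARS1 read 5.87 on siPGC1alpha replicate 1, against 9.77 ± 0.064 on the controls. FARSB read 7.36, 10.72 and 10.66 on siPGC1alpha replicates 1, 2 and 3, against 10.64, 10.74 and 10.66 on the controls. FARSA, whose product binds that of FARSB in 1 enzyme, deviated least from its control mean in the class, at 11.36 on replicate 1, 11.60 on replicate 2 and 11.61 on replicate 3, against 11.61, 11.47 and 11.54 on the controls. SARS1 was next by this deviation, at 10.24, 10.82 and 10.73, against 10.78, 10.79 and 10.75 on the controls. The subunits of 1 enzyme thus differed by more than 3 in their deviations, -0.18 for FARSA and -3.32 for FARSB. The shared genes lay at 9.02 against 11.71 ± 0.024 (GARS1) and at 9.75 against 10.56 ± 0.044 (KARS1).

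Among mitochondrial enzymes IARS2 lay lowest relative to its control mean, at 5.59 on siPGC1alpha replicate 1 against 9.69 ± 0.066 on the controls (SD, n = 3), a deviation of -4.10. YARS2 read 5.60, 8.41 and 8.42 on siPGC1alpha replicates 1, 2 and 3, against 8.47, 8.32 and 8.49 on the controls. RARS2 read 5.81, 8.44 and 8.56, against 8.48, 8.52 and 8.56 on the controls. Both were thus low on replicate 1 and near the controls on the other arrays. SARS2 lay highest relative to its control mean, at 10.02, 8.57 and 8.64, against 8.57, 8.72 and 8.59 on the controls. EARS2 read 8.09, 6.97 and 7.03, against 6.91, 7.09 and 7.11 on the controls. WARS2 read 8.96 on replicate 1, against 8.91 ± 0.026 on the controls. The mitochondrial deviations therefore ran from -4.10 to 1.39, while those of the cytosolic and shared class ran from -4.45 to -0.18.

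The deviation of this array varied with the brightness of a gene over the whole table, and the classes occupy different parts of that range. The control mean enters both the deviation and the brightness, so the trend between them is in part built in. Of the genes above the 90th percentile of control means, 88.6% were lower on it, with a median deviation of -2.13, and the 12 cytosolic and shared genes there had a median of -2.23. Of the genes from the 75th to the 90th percentile, 75.4% were lower, with a median of -1.18. The 3 cytosolic genes there (LARS1, RARS1 and YARS1) had a median of -3.30, and the 2 mitochondrial genes differed, with IARS2 at -4.10 and WARS2 at 0.058. Of the genes from the 50th to the 75th percentile, 49.6% were lower, with a median of 0.021. The 8 mitochondrial genes there had a median of -1.58, with 5 of them lower, and NARS1, the 1 cytosolic gene, was at -3.24. Of the genes from the 25th to the 50th percentile, 18.6% were lower, with a median of 1.19. The 5 mitochondrial genes there had a median of 0.71, and NARS2 was the 1 lower. The median over 63 probe sets for ERCC spike-in controls was 6.5 on this array, against 5.04 to 5.11 on the controls. The 13 measured markers on a list of leukocyte, endothelial, luminal epithelial, muscle, liver and erythroid genes had a median deviation of 1.06. Their median control mean was 6.50, within the 25th to 50th percentile, where the median deviation of all genes was 1.19. Of the 13, 11 were higher on this array, beside 10928 of all 17687 genes, and KRT18 (-3.86) and EPCAM (-0.53) were lower. The list is mixed, since KRT8 and KRT18 had control means of 11.61 and 11.19 in this line. The part of brightness, the spike-in signal and these markers in the synthetase values was not tested.

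**Figure D3:**
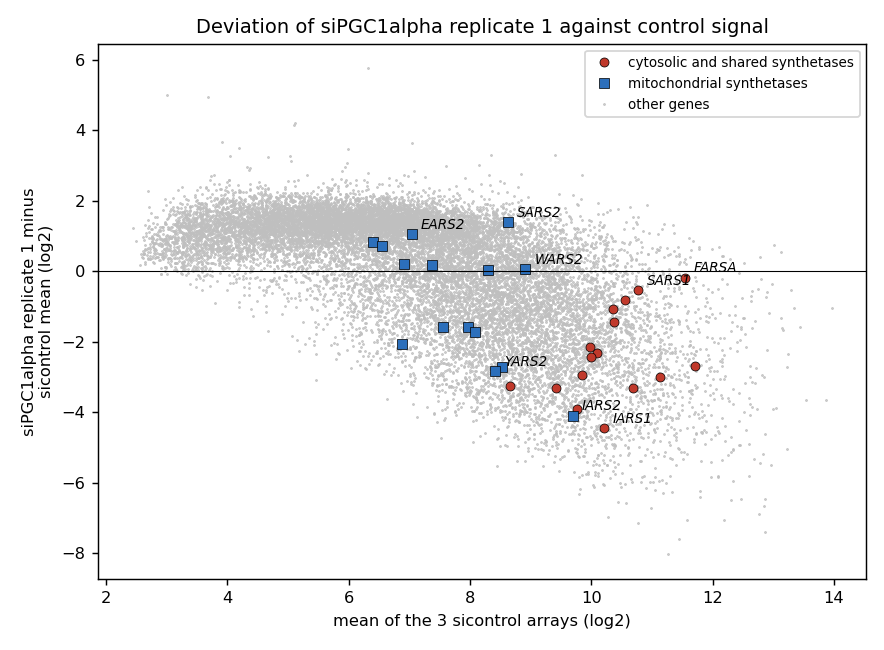
Signal on siPGC1alpha replicate 1 minus the mean of the 3 sicontrol arrays (log2), against that control mean (log2), for all 17687 genes, with cytosolic and shared synthetases as red circles and mitochondrial synthetases as blue squares. The circles sit at control means of 8.66 to 11.71 and all lie below 0, and the squares, at 6.40 to 9.69, lie on either side of it.

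Enzymes for the same amino acid were set side by side on siPGC1alpha replicate 1. The 14 pairs covered 13 amino acids, with EPRS1 and FARS2 each used in 2 pairs. The cytosolic enzyme was the lower one in 12 pairs, the exceptions being FARSA with FARS2 and HARS1 with HARS2. In every pair the cytosolic enzyme also had the higher control mean, for example 9.77 for LARS1 against 6.91 for LARS2. The pairs are thus not matched for brightness, with which the deviation of this array varied. The part of brightness in the gaps was not tested. The gap was widest for leucine, where LARS1 deviated by -3.90 and LARS2 by 0.20. Isoleucine and tyrosine had low readings for both enzymes, with -4.45 and -4.10 for IARS1 and IARS2 and -2.95 and -2.83 for YARS1 and YARS2. The neighbours HARS1 and HARS2 deviated by -1.45 and -1.73. Without this array the pairs differed little, with differences between enzymes of -0.18 (asparagine) to 0.17 (leucine).

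**Figure D4:**
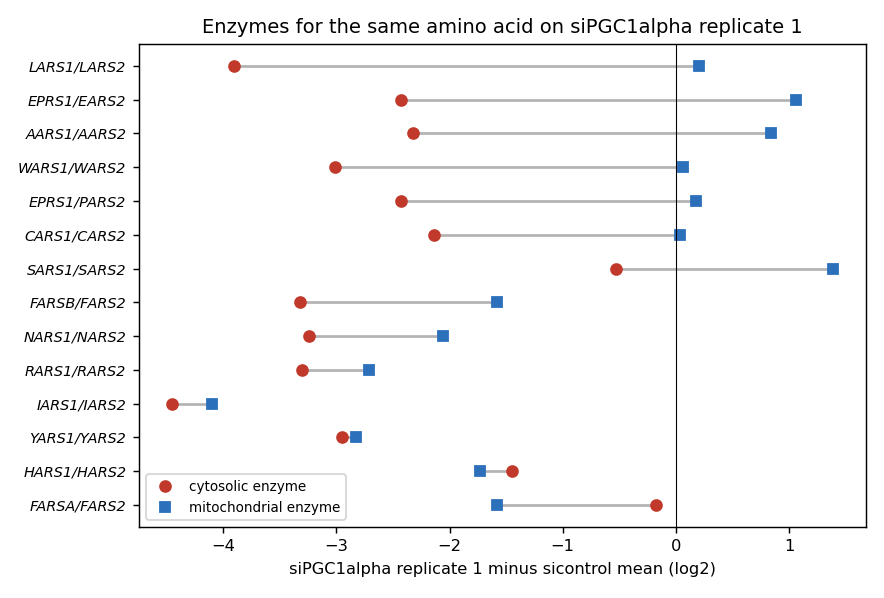
Deviation of siPGC1alpha replicate 1 from the sicontrol mean (log2) for 14 pairs of enzymes for the same amino acid, with red circles for the cytosolic and blue squares for the mitochondrial enzyme of each pair. The circle lies left of the square in 12 pairs, with the widest gap (-4.10, cytosolic minus mitochondrial) for leucine. In every pair the cytosolic enzyme has the higher control mean, so the pairs are not matched for brightness.

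Genes that work beside the synthetases were likewise near the controls on siPGC1alpha replicates 2 and 3. Over 6 lists, 76 of 90 genes were measured, 0 passed the limma test, beside 0% of all genes, and 0 had an unadjusted p under 0.05, beside 4.44% of all genes. AIMP1, a scaffold of the multi-synthetase complex, read 7.79, 10.13 and 10.14 on siPGC1alpha replicates 1, 2 and 3, against 10.11, 10.00 and 10.05 on the controls. Without replicate 1 its difference was 0.082 (SE 0.074). For the 12 measured genes of mitochondrial translation the median difference was 0.063, and 9 were above 0, where 53.5% of all genes were. MTRF1, a mitochondrial release factor, read 5.44, 7.04 and 7.19 on siPGC1alpha replicates 1, 2 and 3, against 6.91, 7.0 and 6.85 on the controls, a difference of 0.20 without replicate 1 (SE 0.086). MTRF1L, another such factor, read 4.87, 8.86 and 8.77, against 8.72, 8.64 and 8.62 on the controls, a difference of 0.15 without replicate 1 (SE 0.077). For both, which were picked for the smallest p of the list, replicates 2 and 3 were above every control and replicate 1 below. Of the 12 genes, replicates 2 and 3 were above every control for 3 and below every control for 2. The shares of all genes were 11.3% and 8.42%.

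The 38 measured genes of transfer RNA maturation had a median of 0.018, and 24 were above 0, again beside 53.5% of all genes. RPP40, a subunit of ribonuclease P, read 4.63, 8.32 and 8.21 on siPGC1alpha replicates 1, 2 and 3, against 8.21, 7.95 and 7.88 on the controls, a difference of 0.25 without replicate 1 (SE 0.11). ELAC1, a transfer RNA nuclease, read 7.23, 5.60 and 5.65, against 5.58, 5.24 and 5.31 on the controls, a difference of 0.24 without replicate 1 (SE 0.11). On replicate 1 RPP40 was low and ELAC1 high.

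Regulators and targets of the amino acid response, the pathway of ATF4, were also near the controls. For the 16 measured genes the median difference was 0.046, 10 genes were above 0 and 0 passed. TRIB3, a pseudokinase induced by ATF4, read 8.39, 8.38 and 8.30 on siPGC1alpha replicates 1, 2 and 3, against 8.12, 8.21 and 8.21 on the controls, a difference of 0.16 without replicate 1 (SE 0.076). SESN2, a stress-induced inhibitor of mTORC1 signalling, read 8.65, 7.98 and 8.07, against 7.78, 7.76 and 7.95 on the controls, a difference of 0.20 without replicate 1 (SE 0.089). All 3 siPGC1alpha arrays were above the controls for both genes, as for 5.42% of all genes. Both were picked for the smallest p of the list, so that share is no yardstick for them. The list had a median deviation of -0.65 on replicate 1.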

How the data were processed

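The authors deposited a log2 signal for each probe set of a single-colour Affymetrix array, with a column for every sample. The log2 scale was inferred from the range of the values, since no label names it. The sources used here do not give the background correction, summarisation or normalization. A second deposited table had 6 columns whose names match no sample, and it was not used. Of 24320 probe sets, 17709 had 1 gene symbol in the platform annotation, and the brightest probe set per gene left 17687 genes. Groups came from the sample titles. The comparison used lmFit and plain eBayes of limma 3.58.1 (R 4.3.3), with no covariates or filter, with Benjamini-Hochberg adjustment over all genes and a threshold of 0.05, once without siPGC1alpha replicate 1 and once with all 6 arrays. Simulated data served to check the test. Deviations on siPGC1alpha replicate 1, medians, pairs and motifs were described without tests. The number of arrays limits the precision, and no detection call was used.

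Members, gene lists and tests were chosen with earlier results of these data known. Values on every array are given for, in each class, the 4 members with the smallest p without siPGC1alpha replicate 1, the 3 lowest and 2 highest on that array relative to the control mean, GARS1, KARS1, HARS1, HARS2 and PPARGC1A, and of each partner list the 2 genes with the smallest p. The array values of NARS1, NARS2 and WARS2, the genes EEF1A1, EEF1D and PSTK and the contrast of FARSA with FARSB were added after their values were seen. Promoters were read from RefSeq windows of GRCh38.p14. Alternatives were dim-gene filters, the mean of probe sets, quantile normalization, median centring, eBayes with trend and robust options, array weights, the replicate number as a block, a threshold of 0.1, and the removal of single arrays.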

Additional observations from a re-analysis of the deposited data

How the results depend on the processing

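The count of synthetases passing the limma test was 0 in both comparisons under every listed alternative with more than 1 array per group. The count over all genes was 0 there too, so this is not particular to the synthetases. Without siPGC1alpha replicate 1, an unadjusted limma p below the 0.05 threshold was reached by HARS2 with the dim-gene filter at the median and by AARS2 with the replicate block. Their differences there were 0.17 (limma adjusted p = 0.9871) and -0.22 (limma adjusted p = 0.662). Whether replicate numbers pair the samples could not be told from the values. Same-numbered arrays had deviations correlated over genes at -0.25, -0.18 and -0.086 in 6 arrays. Without siPGC1alpha replicate 1 the correlations were 0.093 and -0.035 (numbers 2 and 3). In 6 arrays that array dominates the siPGC1alpha deviations, and without it those of siPGC1alpha replicates 2 and 3 are exact opposites. With the replicate block the class medians were 0.059 (cytosolic and shared) and 0.011 (mitochondrial), and genes at an unadjusted p under 0.05 numbered 1334 against 786. In those 5 arrays the block leaves sicontrol replicate 1 alone in its number, and without that array and with no block the medians were also 0.059 and 0.011, with 1218 such genes. Leaving out single arrays gave -0.0038 to 0.059 and 0.0024 to 0.031, and the lowest cytosolic value came without siPGC1alpha replicate 2. Over 6 arrays the cytosolic median ranged from -1.27 to 0.021, the latter without siPGC1alpha replicate 1, and was 0.026 with array weights. The mitochondrial median of 0.031 ranged from -0.053 (without sicontrol replicate 1) to 0.053 (without siPGC1alpha replicate 3), and was 0.010 with quantile normalization and -0.47 with the dim-gene filter at the median, which left 9 of 15 genes. Array weights left 1141 genes at an unadjusted p under 0.05 over 6 arrays, against 3.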

Other observations

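Genes of less common or downstream steps in the use of transfer RNA were also measured. SEPSECS and PSTK, which convert seryl-tRNA to selenocysteinyl-tRNA, and TARS3, a further threonyl-tRNA synthetase gene, had low control means of 5.03, 5.33 and 5.48 (log2). SEPSECS read 5.67, 5.10 and 5.35 on siPGC1alpha replicates 1, 2 and 3, against 4.96, 5.0 and 5.11 on the controls. TARS3 read 5.40, 5.40 and 5.79, against 5.50, 5.52 and 5.41 on the controls. The groups overlapped for both. In the order SEPSECS, PSTK and TARS3, the differences between siPGC1alpha replicates 2 and 3 and the controls were 0.20 (SE 0.10), 0.053 (SE 0.11) and 0.12 (SE 0.12), and 0 of the 3 passed the limma test or had an unadjusted p under 0.05. For the 6 measured cytosolic elongation and termination factors the median difference was 0.018, 3 were above 0 and 0 passed. EIF5A, which helps ribosomes through proline stretches, read 13.75, 12.94 and 12.90 on siPGC1alpha replicates 1, 2 and 3, against 13.01, 13.03 and 12.98 on the controls, a difference of -0.089 without replicate 1 (SE 0.071). EEF1A2, an elongation factor isoform, read 8.48, 7.15 and 7.23, against 7.11, 7.20 and 6.88 on the controls, a difference of 0.13 without replicate 1 (SE 0.11).

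EIF5A was a bright gene that was higher on siPGC1alpha replicate 1, at 13.75 there against a control mean of 13.01. EEF1A1, which delivers charged transfer RNA to the ribosome, read 12.76 against 13.29, and EEF1D, part of its exchange factor, read 9.36 against 12.53. This array was not replicated, and these values carry no test.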
